A study of Mus musculus with 294 samples.

Results

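Elastic fibres were followed through 10 genes of the single-cell count table, Eln, Fbn1, Mfap2, Mfap5, Mfap4, Emilin1, Fbln5, Fbln2, Fbln1 and Lox, which were chosen by name. All 10 were rows of the table, which held 15124 genes in 294 cells. The cells came from the outflow tract region of the heart of mouse embryos that carried the Wnt1-Cre driver and the R26-EYFP reporter, aged E17.5, E14.5, E12.5 or E11.5, and all were EYFP-positive by sorting. Wnt1-Cre marks cells that descend from Wnt1-expressing precursors, the neural crest lineage, so the reporter shows descent and not the present state of a cell. All 294 cells formed 1 group with the same genotype and sort, and the stage, animal and chip of a cell were not given, so there was no replicate and no test between stages.

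The first digit of each cell's name, here called its name series, runs from 1 to 7, and series 1 to 7 held 58, 48, 38, 38, 34, 34 and 44 cells. What the digit stands for was not given, and stage, chip and day of work cannot be told apart in a difference between series. Levels are in CPM, a gene's reads scaled to a total of 1000000 counted reads in that cell, and detection means a level of at least 10 CPM. Intervals are at 95% and cover counting error and the sampling of cells only. They leave out differences between animals, chips and stages, which were not given per cell. Series intervals that lie apart therefore describe these cells only. Amplified reads carried no molecular identifier, so reads are not counts of molecules.

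An elastic fibre has a core of cross-linked elastin, encoded by Eln, laid onto a scaffold of microfibrils. Fibrillin-1 (Fbn1) forms the microfibril, and the small glycoproteins of Mfap2, Mfap5 and Mfap4 associate with it. Emilin1 sits at the interface of core and microfibril, the fibulins bind elastin and help to place it, and lysyl oxidase, encoded by Lox, oxidises lysines of elastin and collagen so that they cross-link. In the great arteries these genes are known from the smooth muscle cells and fibroblasts of the wall. Acta2, smooth muscle actin, and Postn, the matrix protein periostin of cushion and valve mesenchyme, were used as reference genes to place each elastic fibre gene along those 2 directions.

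Total counts per cell ran from 34046 to 3033857, with a median of 1204543. Series 1 stood apart in the number of genes detected by any read, where its median was 7718 compared with 3123 to 4677 in series 2 to 7. No 2 cells had identical counts, and the highest correlation between 2 cells over genes was 0.905. The table had 0 rows named EYFP, YFP or GFP, so the sort could not be checked on the reporter. Of the marker lists of other cell types, the summed glia level had a median of 0 CPM in series 3 to 7, and summed neuron markers had a median of 0 CPM in series 2 to 7. Single cells reached 2460 CPM of summed glia markers in series 1 and 5098 CPM in series 2. Summed cardiomyocyte markers had medians of 0 to 50.7 CPM and reached 38999.8 CPM in a cell of series 7. Summed epicardium markers had medians of 0 to 117 CPM and reached 4092 CPM in a cell of series 4. Of 5 endothelium markers, 3 were counted, and their sum had medians of 0 to 4.55 CPM. It reached 3361.5 CPM in a cell of series 5 and 1811 CPM in a cell of series 7. Summed melanocyte markers had a median of 0 CPM in every series and reached 538 CPM in a cell of series 3. Of 5 blood markers, 0 were among the counted genes, so blood cells could not be checked.

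Promoters are shown for the gene whose level went with Acta2 and against Postn (Fbln5) and for those 2 reference genes. RefSeq on GRCm38.p6 gave promoters of 300 bases, 250 before and 50 after a start, for 6 of the 10 genes (Fbn1, Mfap2, Emilin1, Fbln5, Fbln2 and Fbln1). Fbln5 had a start with 2 GGGCGG motifs (minus strand of chr12:101819070-101819369) and another start with none of the motifs searched (minus strand of chr12:101818435-101818734). Acta2 lies on the minus strand at chr19:34255324-34255623, and Postn is shown for the start with a TATAAA motif, on the plus strand at chr3:54360857-54361156. Sequences run 5′ to 3′ in the direction of the gene, and capitals mark motif matches on either strand.
Fbln5, start with GGGCGG: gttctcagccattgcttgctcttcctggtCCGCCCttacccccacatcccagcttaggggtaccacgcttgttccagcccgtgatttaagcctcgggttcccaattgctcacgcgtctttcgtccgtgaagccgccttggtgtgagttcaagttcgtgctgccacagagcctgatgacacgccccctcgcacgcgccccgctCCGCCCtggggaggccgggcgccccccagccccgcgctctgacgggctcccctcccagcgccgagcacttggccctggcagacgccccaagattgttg
Fbln5, other start: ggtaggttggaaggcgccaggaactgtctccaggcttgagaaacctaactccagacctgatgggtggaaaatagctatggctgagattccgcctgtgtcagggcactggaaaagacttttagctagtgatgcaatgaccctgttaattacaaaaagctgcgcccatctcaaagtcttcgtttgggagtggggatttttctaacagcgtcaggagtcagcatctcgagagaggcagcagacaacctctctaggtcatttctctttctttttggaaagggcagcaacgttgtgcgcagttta
Acta2: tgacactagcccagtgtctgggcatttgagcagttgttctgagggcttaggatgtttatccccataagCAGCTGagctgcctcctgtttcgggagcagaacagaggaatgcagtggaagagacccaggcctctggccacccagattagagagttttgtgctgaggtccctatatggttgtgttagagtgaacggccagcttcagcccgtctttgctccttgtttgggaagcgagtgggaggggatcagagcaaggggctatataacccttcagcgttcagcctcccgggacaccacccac
Postn: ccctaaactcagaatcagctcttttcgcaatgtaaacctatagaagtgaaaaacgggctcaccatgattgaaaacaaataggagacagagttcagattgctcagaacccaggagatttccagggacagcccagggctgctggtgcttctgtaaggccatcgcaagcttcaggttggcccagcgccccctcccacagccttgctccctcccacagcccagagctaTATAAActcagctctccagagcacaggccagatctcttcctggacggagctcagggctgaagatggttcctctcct

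Both strands were searched for 6 motifs, and the share of all 32851 promoters of this length that held each is given beside it. The motif TATAAA was held by 13.6%, the motif GGGCGG by 35.7%, the motif TGACTCA by 5.20% and the CArG box by 1.63%. The motif CAGCTG was held by 16.3% and the motif CACGTG by 7.15%, and these 2 are both forms of CANNTG and read the same on both strands. The GGGCGG nearest the start of Fbln5 began 48 bases before it, the CAGCTG of Acta2 182 bases before the start, and the TATAAA of Postn 26 bases before the start. Of the other 5 genes with a promoter, Mfap2, Fbln2, Fbn1 and Fbln1 held GGGCGG at a start, and Emilin1, Fbn1 and Fbln1 held CAGCTG. At some start, GGGCGG was thus found for 5 of the 6 genes, while the windows of all 6 were without TATAAA. No window of these 6 genes, of Acta2 or of Postn held a match to TGACTCA or to the CArG box as searched. Near matches were not counted. A match, or none, describes the letters of these windows only.

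Per exon length, Mfap2 stood first and Mfap5 last. The median over all cells was 1133 CPM per kb for Mfap2 (interval 1020 to 1333), above that of Postn, at 341 (289 to 418). Mfap4 followed at 152 CPM per kb (114 to 199), then Fbln2 at 87.9 (75.9 to 98.1) and Fbln5 at 71.8 (37.4 to 99.0), whose intervals overlapped. A lower tier held Fbn1 at 29.9, Emilin1 at 20.1, Eln at 17.8, Lox at 9.96 and Fbln1 at 7.87 CPM per kb, and each of these intervals overlapped that of the next gene. Mfap5 had a median of 0. Mfap2 was first by median and by mean in each of the 7 series.

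**Figure D1:**
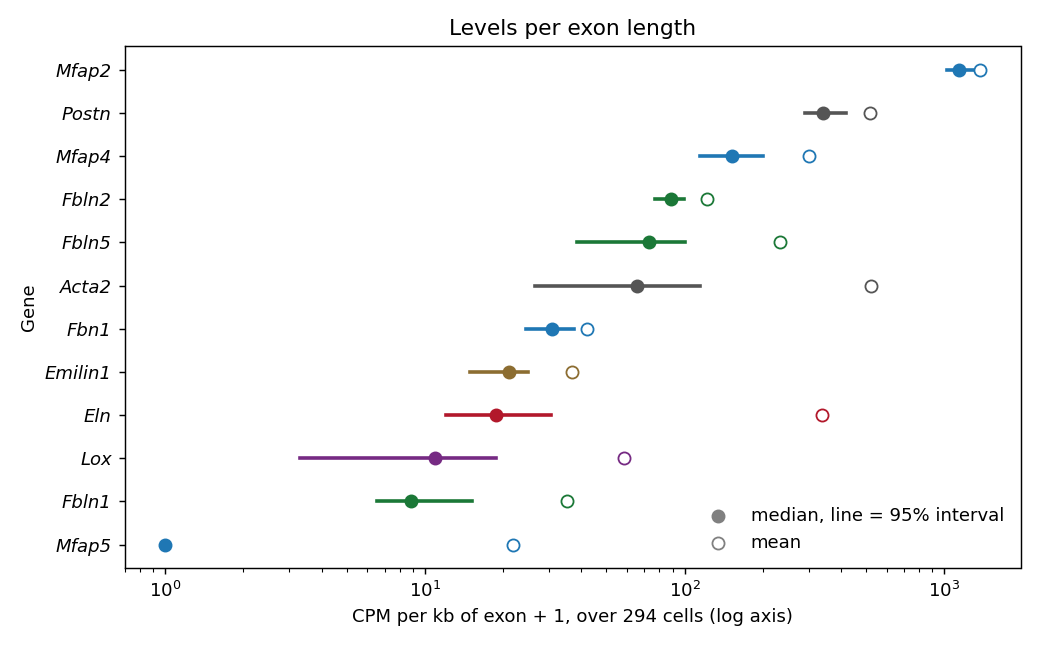
Median (filled, with its 95% interval as a line) and mean (open) level of each gene over 294 cells, in CPM per kb of exon plus 1 on a log axis, with genes on the vertical axis coloured by role. Mfap2 has the highest median at 1133 CPM per kb, and the mean of Eln, 338, lies far from its median of 17.8.

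The order by mean differed for Eln. Its mean was 338 CPM per kb, the second of the 10 genes after Mfap2 at 1368, although its median ranked seventh among them. The tenth of cells with the most Eln held 81.7% of its summed CPM, compared with 27.0% for Mfap2 and 32.4% for Fbln2. Fbln5 (50.3%) and Lox (59.2%) lay between, and Mfap5, present in few cells, had 99.4%.

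Eln (ENSMUSG00000029675.12, chromosome 5, 134702593 to 134747323, minus strand, GRCm38), the elastin gene, has 36 exon blocks. An annotated transcript on the other strand, Gm30003, covers 3.30% of its exon length. Eln reached 10 CPM in 71.4% of cells (65.9% to 76.5%) and in 64.4% of cells without series 1. Its level ran from 67.0 through a median of 890 to 56839 CPM in series 1. In series 2 it ran from 1.60 through 1803 to 74743 CPM. The remaining series were lower, with a median of 229 CPM in series 3 (0 to 8399), 57.6 in series 4 (0 to 4100) and 39.2 in series 7 (0 to 5984). Series 6 had a median of 1.23 CPM with a highest cell of 3482, and series 5 had a median of 0 with no cell above 118.1 CPM. Single cells overlapped between all series, while the median intervals of series 1 (555.1 to 2197) and series 2 (458.3 to 4040) lay above those of series 3 to 7, whose upper bounds went up to 435.7 in series 3.

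Very high Eln was seen in 2 series only. Of the 25 cells with the most Eln, all at 9584 CPM or more, 15 were in series 1 and 10 in series 2. Eln passed 10000 CPM in 14 of 58 cells of series 1 and 9 of 48 of series 2, and in 0 cells of series 3 to 7. Eln was also the highest of the 10 genes by CPM in 22 cells of series 1 (37.9%) and 18 of series 2 (37.5%), and in 4 cells of all the others. The 10 genes together took a median of 0.522% of a cell's reads and up to 8.21%, in a cell of series 2.

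**Figure D2:**
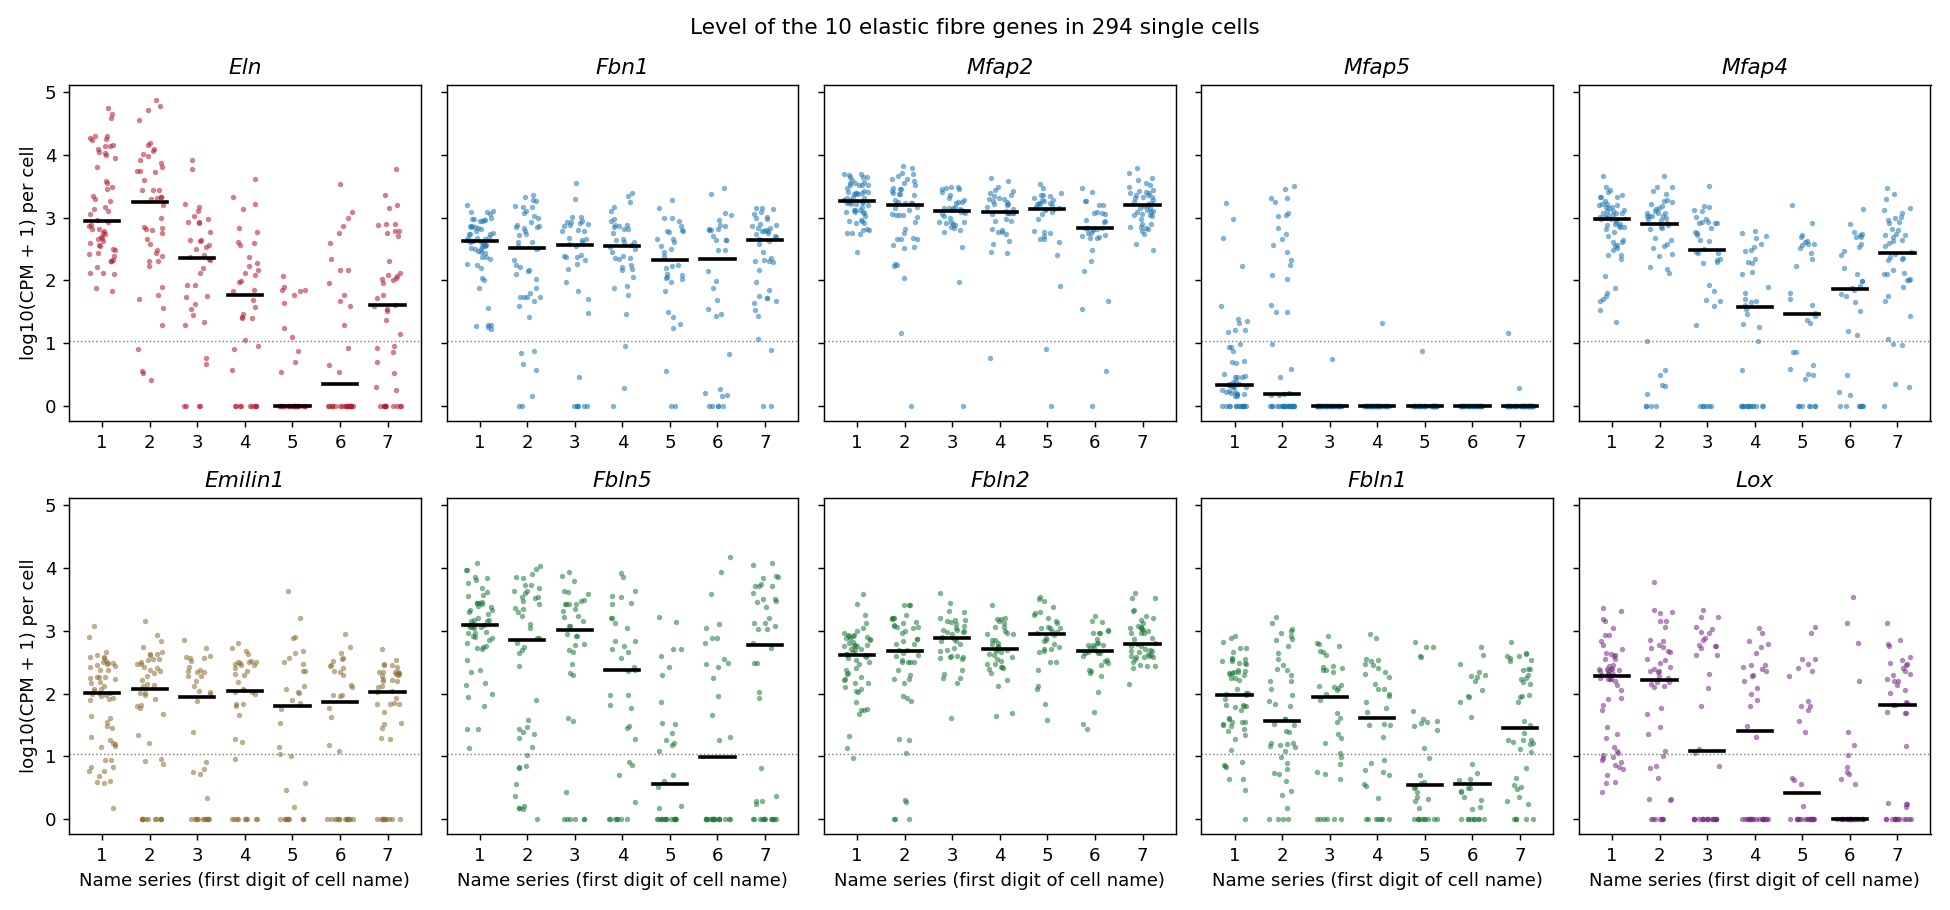
Each point is 1 cell, with its name series on the horizontal axis and log10(CPM + 1) on the vertical axis, 1 panel per gene; black bars are series medians and the dotted line is 10 CPM. Eln spans the widest range and is near 0 in series 5, Mfap5 is seen above 10 CPM almost only in series 1 and 2, and Mfap2 and Fbln2 have medians well above 10 CPM in all 7 series.

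Of the microfibril genes, Fbn1 and Mfap2 were detected in most cells of every series, and Mfap5 and Mfap4 differed more between series. Fbn1 (chromosome 2, 125300594 to 125507993, minus strand) reached 10 CPM in 88.8% of cells (84.6% to 92.1%), and its series medians ran from 210 to 439 CPM. Its mean differed from that of the other series by at most 1.30-fold. An antisense transcript, Gm9913, covers 20.1% of the exon length of Fbn1, and the counting was not stated to use strand, so reads of the pair cannot be told apart there.

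Mfap2 (chromosome 4, 141010418 to 141015984, plus strand), which encodes a microfibril glycoprotein, was detected in 97.6% of cells (95.2% to 99.0%). Its series medians ran from 676 CPM in series 6 to 1851 in series 1. Series 6 was the low one, with cells from 0 to 2986 CPM, and its median interval (510 to 932) lay below those of series 1, 2, 4 and 7. Mfap2 had the highest CPM of the 10 genes in 42.5% of the cells, and Fbln5 in 18.0%.

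Mfap5 (chromosome 6, 122505845 to 122529290, plus strand), whose product binds fibrillin and elastin-associated microfibrils, was the rarest, at 10 CPM in 11.2% of cells (7.85% to 15.4%). In series 2 it was detected in 20 of 48 cells (41.7%, 27.6% to 56.8%), with a highest cell of 3256 CPM. In series 1 it was detected in 11 of 58 cells (19.0%, 9.87% to 31.4%), with a highest cell of 1742 CPM. Series 3 to 7 held 2 cells at 10 CPM or more, at 19.6 CPM in series 4 and 13.5 CPM in series 7. In series 6 it had 0 reads in 34 cells, where 3 cells would be 8.82% and the exact interval reaches 10.3%.

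Mfap4 (chromosome 11, 61485431 to 61488900, plus strand), another microfibril-associated glycoprotein, was detected in 79.9% of cells (74.9% to 84.4%). It was highest in series 1 (20.5, median 945, up to 4545 CPM) and series 2 (0, 790, up to 4568). The medians of series 3 and 7 were lower, at 300 and 272 CPM. In series 4, 5 and 6 the medians were 37.1, 27.8 and 71.6 CPM, and the highest cells were at 605.2, 1602 and 1354 CPM. Mapk7, on the other strand, shares 4.63% of the exon length of Mfap4.

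Emilin1 (chromosome 5, 30913402 to 30921277, plus strand) was detected in 69.7% of cells (64.1% to 74.9%), and its level barely followed the name series. Its series medians lay between 62.0 and 115.6 CPM with intervals that all overlapped. The highest cell, at 4311 CPM, was in series 5, the series with the lowest Eln.

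The fibulins did not follow one pattern. Fbln5 (chromosome 12, 101746565 to 101819055, minus strand), which binds elastin and is required for elastic fibre assembly, was detected in 72.1% of cells (66.6% to 77.2%) and in 65.3% without series 1. Its series 1 cells ran from 12.6 through a median of 1244 to 12090 CPM. The medians of series 2, 3 and 7 were 700, 1029 and 586 CPM, and that of series 4 was 232.8 CPM.

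Fbln5 was low in the middle of series 5 and 6 but not absent from them. The median was 2.62 CPM in series 5, with a highest cell of 1678 CPM, and 8.67 CPM in series 6, where 1 cell held the highest Fbln5 of all, 14790 CPM. Fbln5 and Eln thus both had their lowest means in series 5, at 152 and 16.0 CPM.

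Fbln2 (chromosome 6, 91212455 to 91272540, plus strand), a fibulin of basement membranes and elastic tissue, was detected in 98.0% of cells (95.6% to 99.3%). Its highest median was in series 5, at 878 CPM (37.3 to 3434), and its lowest in series 1, at 415 CPM (8.23 to 3927). The median intervals of series 5 (519.2 to 1145) and series 1 (295 to 565) overlapped. Fbln1 (chromosome 15, 85205949 to 85286535, plus strand) was detected in 65.3% of cells (59.6% to 70.7%), with medians of 94.7 and 87.5 CPM in series 1 and 3 and of 2.50 and 2.61 CPM in series 5 and 6.

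Lox (ENSMUSG00000024529.14) was detected in 56.8% of cells (50.9% to 62.5%) and in 51.3% without series 1. Its medians were 188 CPM in series 1 (1.64 to 2282) and 162.8 CPM in series 2 (0 to 5952). In series 3, 4 and 7 the medians were 11.0, 23.95 and 64.8 CPM, with highest cells of 2166, 1111 and 1348 CPM. In series 6 it was found at 10 CPM in 6 of 34 cells (17.6%, 6.76% to 34.5%), although 1 cell reached 3478 CPM.

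In series 1, all 58 cells held Eln, Fbn1, Mfap2, Mfap4 and Fbln5 at 10 CPM or more, while 57 held Fbln2, 50 Fbln1, 47 Emilin1, 46 Lox and 11 Mfap5. The lowest cell of that series had 67.0 CPM of Eln, 284 of Mfap2, 20.5 of Mfap4, 16.0 of Fbn1, 12.6 of Fbln5 and 40.2 of Acta2, while other series had cells at 0 for most of them. These lowest values were 1.04% of the series mean for Eln, 1.96% for Mfap4 and 0.574% for Fbln5. Shares at 10 CPM in series 1 are therefore read with those at 100 CPM, which were 96.6% for Eln, 87.9% for Mfap4 and 89.7% for Fbln5.

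Cells held a median of 7 of the 10 genes at 10 CPM (interval 7 to 8), from 1 to 10. The median was 9 in series 1, 8 in series 2, 7 in series 3, 4 and 7, and 6 in series 5 and 6. Over the whole count table, the median number of genes with any read was 7718, 4451.5, 3300.5, 4211, 3781.5, 3123 and 4676.5 in series 1 to 7. The part of this general detection in the counts of the 10 genes was not tested. All 10 genes were present in 20 cells, 18 of them in series 1 and 2. At most 4 genes were present in 30 cells, of which 11 were in series 5 and 12 in series 6.

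To set the series side by side, the mean CPM of a series was divided by the mean of the other 6 series' means, with 10 CPM added to both, and called at 2-fold. Of 70 gene by series values, 22 passed, 6 higher and 16 lower. Over all genes averaging at least 10 CPM, 17.1% of values passed. Higher values fell in series 1 and 2. In series 1, 2 of 10 genes were higher, Eln and Mfap4, where 4.02% of the 9562 genes averaging at least 10 CPM were higher, and 0 were lower, where 10.9% of genes were. In series 2, 4 were higher, Eln, Mfap5, Mfap4 and Lox (6.17% of genes), and 0 lower (10.2%).

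Series 3 to 7 had 0 higher calls and 16 lower ones. Lower were Eln and Mfap5 in series 3 (5.84% of genes higher, 9.71% lower) and in series 7 (2.5% and 7.21%). Series 4 added Mfap4 to these 2 genes (3.67% of genes higher, 8.67% lower). Series 6 added Mfap4 and Mfap2 (7.36% and 18.7%), the latter just at the limit at 2.001-fold. Series 5 had 5 genes lower, Eln, Mfap5, Mfap4, Fbln5 and Lox (9.13% and 15.6%).

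By size, Eln had the widest span of folds over the series. Its mean was 6423 CPM in series 1 and 7603 in series 2, which was 4.11-fold and 5.56-fold above the other series. In series 5 its mean of 16.0 CPM compared with 2624 CPM over the other series, a ratio of 0.00986 with 10 CPM added to both. Fbln5 was 10.7-fold lower in series 5, at 152 CPM compared with 1724 CPM. Mfap4 was 2.43-fold higher in series 1 and 4.33-fold lower in series 4, at means of 1050 and 126.1 CPM. Mfap5 had the highest single fold, 19.2 in series 2, at a mean of 384 CPM compared with 10.5 CPM over the other 6.

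**Figure D3:**
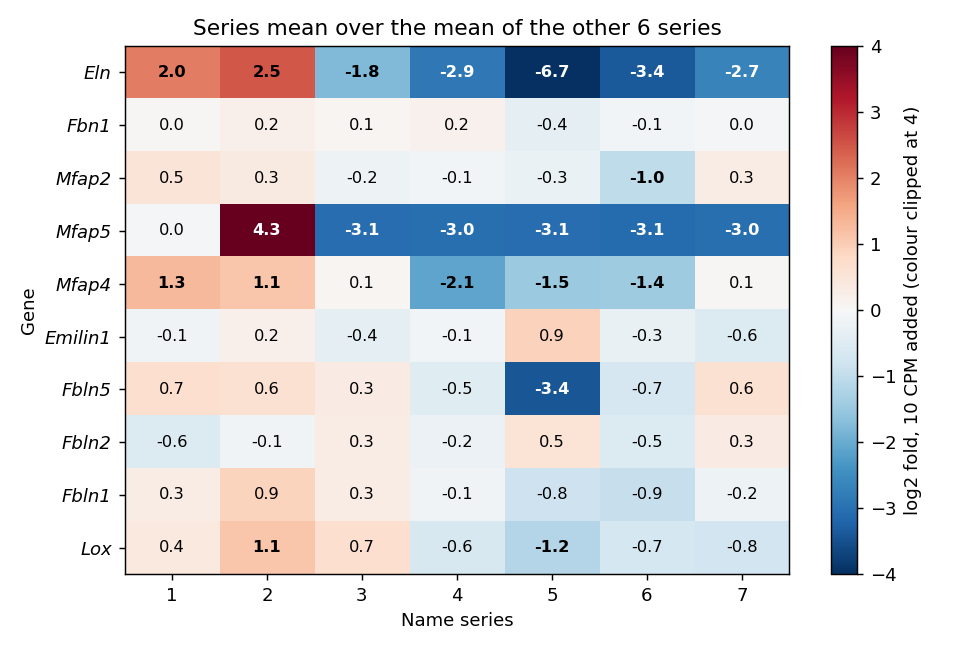
Each cell of the grid gives the log2 fold of a gene's mean in 1 name series (columns) over the mean of the other 6, with 10 CPM added; red is higher, blue is lower, bold marks 2-fold or more, and colour is clipped at 4. Eln carries the widest span, from 2.5 in series 2 to -6.7 in series 5, while Fbn1, Emilin1, Fbln2 and Fbln1 have no bold value.

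Fbn1, Emilin1, Fbln2 and Fbln1 passed 2-fold in none of the series, as did 39.1% of all genes tested. The median log2 fold over the 10 genes was 0.34 in series 1 and 0.74 in series 2, where that of all genes was -0.20 and -0.13. In series 5 and 6 it was -0.998 and -0.80, where that of all genes was -0.06 and -0.21. None of the 70 values changed direction under another scaling of the counts.

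The lower calls lean on series 1 and 2, which enter the mean they are set against. With series 1 and 2 left out, 7 of 50 values passed 2-fold. Mfap5 had no room to pass in series 3 to 7, with means of 0 to 0.516 CPM and folds of 0.97 to 1.04. Of all 9416 genes, 3.38% to 9.35% were higher in a given series and 7.29% to 17.8% lower. The count of 7 is therefore not read as a trait of these genes. Eln and Lox were then higher in series 3, by 2.88-fold and 2.39-fold, where 7.14% of 9416 genes were higher. Emilin1 was higher in series 5 (9.35% of genes) and Fbln5 in series 7 (3.38%). The Emilin1 mean in series 5 rests on few cells, since 4 cells held 70.8% of its sum there and its median was the lowest of the 7 series. Eln and Fbln5 were still lower in series 5, at 16.0 and 152 CPM compared with 429 and 1508 CPM over the other 4 (15.2% of genes lower), and Mfap4 was still lower in series 4 (8.84%). Over all 7 series, medians in place of means gave 27 calls in place of 22. The share of all genes called by median was not computed, so the rise is not read as a trait of these genes. They ended all 6 calls of Mfap5 and that of Eln in series 3, and Eln in series 1 was 2.47-fold higher. Lox turned direction in series 3, from 1.58 times the other series by mean to 0.25 times by median, so its higher value there rests on the mean. Medians added calls for Fbln5, Fbln1 and Lox, among them Fbln5 at 2.87-fold and Lox at 3.67-fold higher in series 1 and Fbln5 at 0.03 times the others in series 6.

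Other measures moved with the name series, and their part in these differences was not tested. The summed level of 6 fibroblast markers had a median of 11123 CPM in series 1 (194.7 to 40639) and 6293 in series 2 (97.0 to 30966). It was 3217 in series 3 (82.4 to 16027), 1438 in series 4 (8.45 to 10729), 2776 in series 6 (0 to 12676) and 1662 in series 7 (1.63 to 16361), and lowest in series 5, at 223 CPM (0 to 6460). Of these markers, Dpt and Pi16 had no read in series 6 and Pi16 none in series 7. The 7 smooth muscle markers summed to a median of 2817 CPM in series 1 (137 to 34172), 1052 in series 2 (3.74 to 38970) and 263 to 1915 CPM in series 3 to 7 (0 to 12554), the highest of these in series 5.

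Immediate early and heat shock genes differed too. The summed level of Fos, Jun, Egr1, Atf3 and Hspa1a had a median of 4200 CPM in series 1 (266 to 26070), 1592 in series 2 (0.427 to 15995) and 4968 in series 3 (850 to 15353), and of 420 to 731.2 CPM in series 4 to 7 (0 to 5795). All 5 had reads in every series. The median total was 820095.5 reads in series 5 and 635879 in series 3, and the part of depth was not tested.

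Relations to Acta2 and Postn were read within 1 series at a time, as Spearman's correlation between 2 genes' levels over its cells. Cells of a series share whatever that series is, and total count and genes detected can move 2 genes together, so these are descriptions. Acta2 and Postn themselves ran against each other in series 1 (-0.28) and series 2 (-0.48) and not in series 3, 4, 6 and 7 (0.06 to 0.27). The comparison over all genes covers the 6308 genes at 10 CPM in at least 20% of cells, a level that all of the 10 genes but Mfap5 reached.

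Fbln5, Lox and Fbn1 had a positive correlation with Acta2 in each of the 7 series. They are 3 of 9 genes, and 4.74% of all genes had that pattern, while 0 of 9 genes and 0.396% of all genes were negative in every series. Fbln5 with Acta2 ranged from 0.12 in series 5 to 0.63 in series 2, with a median of 0.32. Lox with Acta2 ranged from 0.04 in series 7 to 0.61 in series 4, with a median of 0.36. Fbn1 was weaker, from 0.10 to 0.35 with a median of 0.15. A median of 0.3 or more was reached by Fbln5 and Lox, 2 of 9, and by 0.824% of all genes.

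Held at equal total count and genes detected, Fbn1 alone kept its sign in all 7 series, with 0.0055 in series 7. Fbln5 and Lox then had values just under 0 in series 7, at -0.01 and -0.07, with medians of 0.30 and 0.32 over series. Of all genes, 1.74% were positive in every series on that measure.

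Eln followed Acta2 in some series and not in others. Its correlation with Acta2 was 0.53 in series 1 and 0.63 in series 2, the series with very high Eln, and between -0.16 and 0.16 in series 3 to 7. Cells without a read are tied in rank, and their part in the lower values was not tested. Eln had 0 reads in 22 of 34 cells of series 5 and 17 of 34 of series 6, and Acta2 in 18 of 38 of series 3. In series 4, where the correlation was -0.09, Eln had 0 reads in 9 of 38 cells and Acta2 in 8 of 38. Mfap2 and Fbln1 were negative with Acta2 in series 1 (-0.38 and -0.32) and in series 2 (-0.26 and -0.23). Fbln2 was positive there, at 0.35 and 0.23, and had no settled sign in the other series. Emilin1 stayed between -0.10 and 0.12 in all 7 series, and Mfap4 between -0.11 and 0.34.

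With Postn, Fbln5 was negative in every series, from -0.59 in series 2 to -0.02 in series 6, with a median of -0.39. It was 1 of 9 genes, where 0.428% of all genes were negative in every series, and 0 of 9 were positive in every series, where 2.24% of genes were. Eln was negative in 6 of 7 series, from -0.65 in series 2 to 0.08 in series 3, with a median of -0.32. Emilin1 was also negative in 6 of 7, with a median of -0.19. A median of -0.3 or less was reached by Eln and Fbln5, 2 of 9, and by 0.0476% of all genes, which is 3 of 6308.

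**Figure D4:**
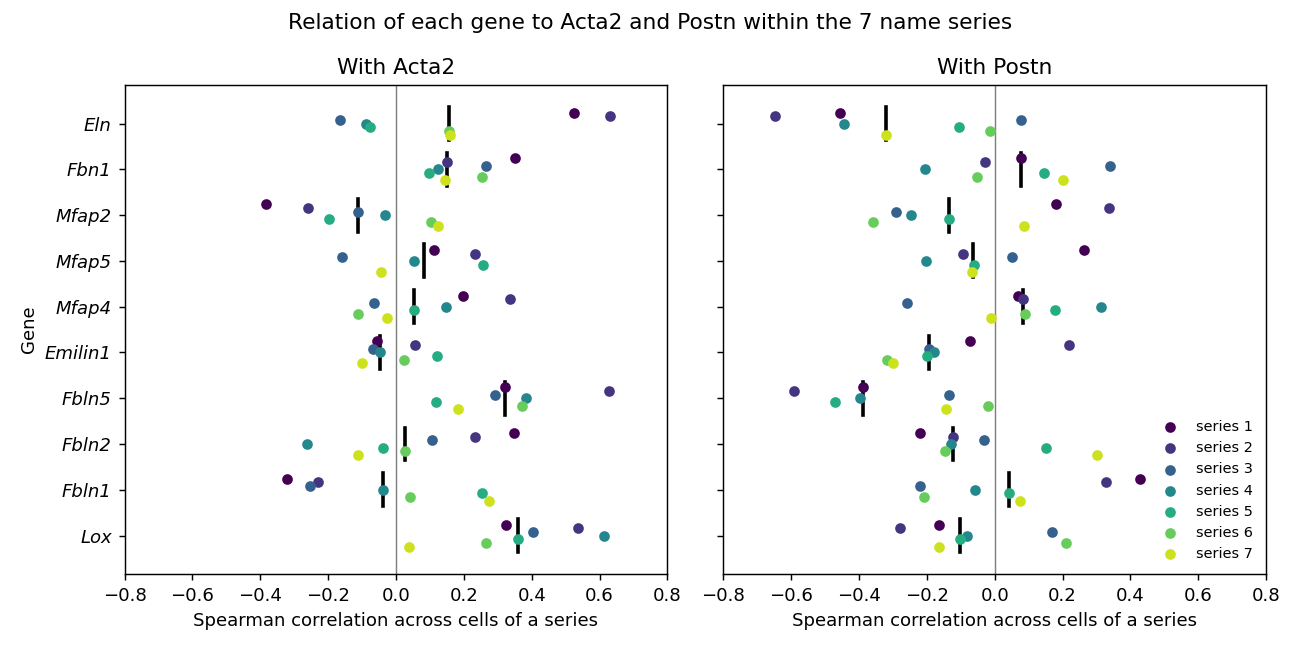
Spearman correlation of each gene (vertical axis) with Acta2 (left panel) and with Postn (right panel) across the cells of a name series (horizontal axis, -0.8 to 0.8); each point is 1 of the 7 series and the black bar is the median over series. With Acta2, all 7 points of Fbn1, Fbln5 and Lox are above 0; with Postn, all 7 points of Fbln5 are below 0, the highest at -0.02.

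The sign in series 6 is thin. As a Pearson correlation, Fbln5 with Postn was 0.03 in series 6, so that 0 genes kept 1 sign with Postn in every series, while its median stayed at -0.36. Lox, which resembled Fbln5 toward Acta2, did not share its relation to Postn, with values from -0.28 to 0.21. Fbln1 went with Postn in series 1 (0.43) and series 2 (0.33) and was against it in series 3 (-0.22) and series 6 (-0.21).

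Pooling all cells hid or made such relations. Over the 294 cells as 1 set, Eln with Postn was 0.07 compared with the within-series median of -0.32, and Fbln5 with Postn was -0.09. Mfap5 with Acta2 was 0.34 over all cells, and 0.11 and 0.23 in series 1 and 2. Postn, like Eln, was high in series 1, with a median of 7454 CPM compared with 1344 to 3676 CPM in series 2 to 7.

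Over the 7 smooth muscle markers, of which Acta2 is 1, Fbln5, Lox and Fbn1 each had a positive median correlation with 6. The highest for Fbln5 was Cnn1 (calponin), at 0.34, and the lowest Des, at -0.05. For Lox the highest was again Cnn1, at 0.38, while for Fbn1 no marker passed 0.15. Eln, Mfap4 and Fbln2 were positive with 5 of the 7, and Mfap2 with 1. Outside this list, Fbln5 had a median correlation of 0.37 with Tbx18 of the epicardium list, above that with Cnn1. Wt1 and Aldh1a2 of that list ran the other way, at -0.10 and -0.32. They were detected in 5.44% and 1.70% of cells, compared with 51.7% for Tbx18. With the summed epicardium markers, most of whose level is Tbx18, Fbln5 had a median of 0.35 and was positive in 5 of 7 series. With the summed smooth muscle markers it had a median of 0.33 and was positive in 7 of 7. Against the 7 mesenchyme markers, Fbln5 was positive with 1, Col1a1 at 0.14, while Mfap4 and Fbln1 were positive with all 7. The lowest of these were near 0, at 0.05 for Mfap4 with Twist1 and 0.0009 for Fbln1 with Sox9.

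Among the 9 genes without Mfap5, 36 pairs gave a median within-series correlation of 0.11, from -0.10 to 0.52, where all pairs of the genes in at least 20% of cells had a median of 0.03. Of the 36 pairs 32 were above 0, as were 66.8% of all pairs. The 3 pairs at 0.3 or more, a level reached by 0.134% of all pairs, were Fbln5 with Lox, Mfap2 with Mfap4 and Eln with Fbln5. In 8 of the 36 the correlation was positive in every series, as in 3% of all pairs.

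Fbln5 and Lox, the elastin-binding fibulin and the cross-linking enzyme, were the closest pair. Their correlation was 0.57, 0.55, 0.52 and 0.63 in series 1 to 4 and 0.20, 0.20 and 0.21 in series 5 to 7. The median of 0.52 became 0.51 at equal total count and genes detected, and 0.37 to 0.53 with any 1 series left out. Both genes were at 10 CPM in 145 of 294 cells (49.3%, 43.5% to 55.2%), where the product of their shares within series gives 43.7%. Without series 1 these were 41.9% and 34.9%.

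Eln and Fbln5 were positive in all 7 series, but unevenly. The values were 0.67 in series 1, 0.81 in series 2 and 0.58 in series 7, and 0.06 in series 3, with a median of 0.34. Eln and Lox were likewise at 0.50, 0.66 and 0.47 in series 1, 2 and 7 and at 0.22 or less in the others. In series 2, Eln, Fbln5 and Lox also correlated with the summed immediate early and heat shock genes, at 0.72, 0.55 and 0.53, and the part of these in the values of series 2 was not tested. In series 4 they were 0.38, 0.42 and 0.17, and in series 1 and 7 they lay between -0.04 and 0.22. The other series were mostly negative. In series 3, 5 and 6, Eln had 0.13, -0.06 and -0.37, Fbln5 -0.30, -0.02 and -0.20, and Lox -0.15, -0.12 and -0.16.

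Mfap2 and Mfap4, both of the microfibril, made another pair of even size. Their correlation was 0.41, 0.52, 0.49, 0.35, 0.22, 0.43 and 0.43 in series 1 to 7. The median of 0.43 was 0.21 as a Pearson correlation. Fbn1, which forms the microfibril backbone, had a median of 0.16 with Mfap2 and 0.08 with Mfap4, both with mixed signs. Mfap5 gave no value in series 6 and rested on 1 or 2 cells with reads in series 3, 4, 5 and 7, so its correlations there are not read.

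**Figure D5:**
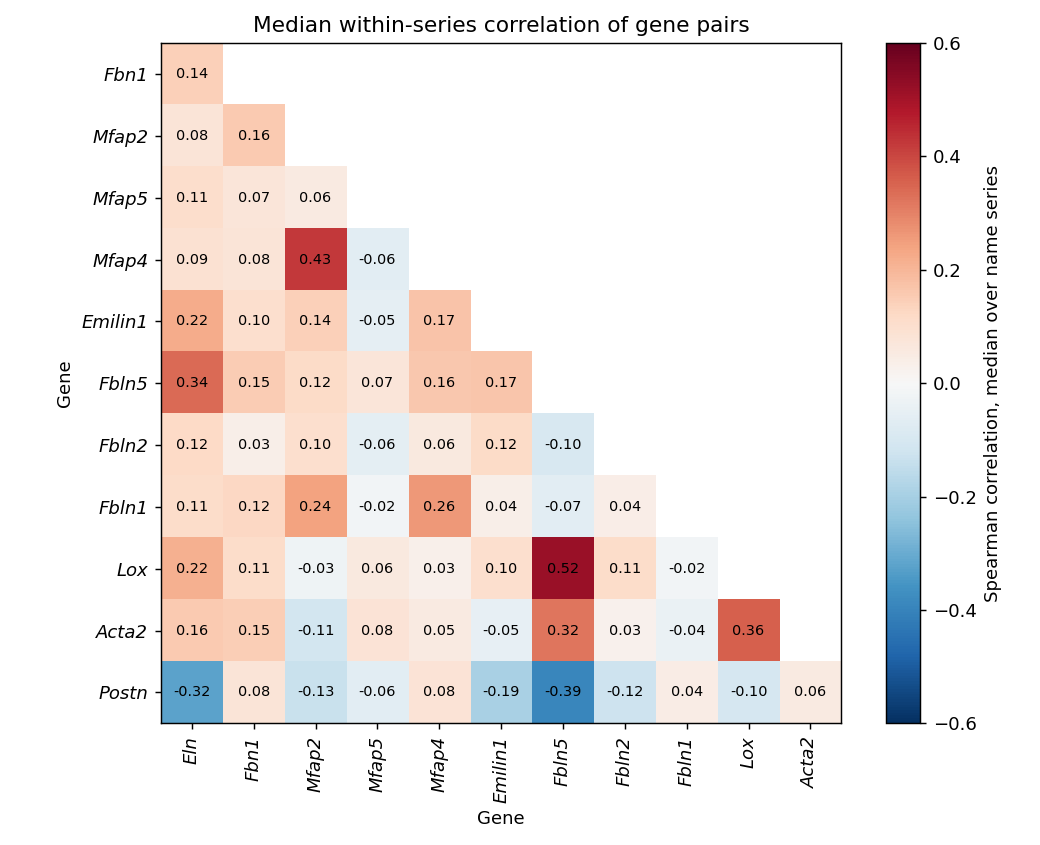
Median over name series of the Spearman correlation for each pair of genes, with genes on both axes and colour from blue (negative) to red (positive). Fbln5 with Lox (0.52), Mfap2 with Mfap4 (0.43) and Eln with Fbln5 (0.34) are the highest pairs of the 10 genes, and the row of Postn is lowest at Fbln5 (-0.39) and Eln (-0.32).

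Across the whole table, the genes most like each member were taken as those with the highest median correlation among genes positive in each series that gave a value. Eln was most like Efnb2 (an ephrin ligand, 0.38), Alcam (an adhesion molecule, 0.36) and Sfrp2 (a secreted Wnt modulator, 0.36). Fbln5 was most like Lox (0.52), Cxcl12 (a chemokine, 0.48) and Efnb2 (0.45). Lox was most like Fbln5 (0.52), Cxcl12 (0.40) and Cnn1 (0.38). Efnb2 and Cxcl12 were detected in 31.3% and 42.2% of cells.

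The microfibril genes had other neighbours. Mfap2 was most like Ubb (ubiquitin, 0.43), Mfap4 (0.43) and Ptn (pleiotrophin, 0.38), and Ubb shares sequence with other loci, so that its counts are uncertain. Mfap4 was most like Mfap2 (0.43), Rcn3 (a calcium-binding protein of the endoplasmic reticulum, 0.39) and Fcgrt (the neonatal Fc receptor, 0.31). Fbn1 was closest to Nrk (0.30), Kdelc2 (0.29) and Prrc2c (0.27). For Emilin1 the closest were Malat1 (0.32), Sfrp2 (0.26) and Aspn (0.24). For Fbln2 they were Mpzl1 (0.31), Zfp503 (0.26) and Zc3h7b (0.24), and for Fbln1 they were Mad2l2 (0.26), Gpc3 (0.26) and Mfap4 (0.26). The genes named for Mfap5, Cstf2t, Tsr1 and Stk24, at 0.27 to 0.29 over 6 series, rest on the same few cells as above.

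Other genes of the elastic fibre pathway were counted from lists. Of 51 listed genes, 49 were in the table and 40 had a mean of 10 CPM or more. Of the 40, 20 were at least 2-fold higher in 1 series or more, where 35.7% of all genes were, and 25 were lower in 1 or more, where 53.6% of genes were. In series 1 or 2, 12 of the 40 were higher, where 9.05% of all genes were.

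Microfibril and latent TGF-beta binding genes held 6 of 8 that were higher in some series. Thsd4, whose product promotes fibrillin microfibril assembly, was the furthest of them, 3.81-fold higher in series 2. It reached 10 CPM in 9.52% of all cells. Ltbp2, a microfibril-bound protein of the latent TGF-beta binding family, was 2.36-fold, 2.40-fold and 3.29-fold higher in series 1, 2 and 3, with means of 163.8 to 208.2 CPM there and 0 to 6.39 CPM in series 4 to 7. Ltbp4, which helps Fbln5 to place elastin, was 2.53-fold higher in series 2. It was detected in 82.7% of cells (77.8% to 86.8%) and had a positive correlation with Acta2 in every series (median 0.29). Fbn2, the fibrillin of embryonic microfibrils, was detected in 97.3% of cells and was 2.19-fold higher in series 3.

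Of the other fibulins, 0 of 4 were higher in any series and 3 were lower in 1 or more. The lowest was Hmcn1 (hemicentin), at 0.39 times the other series in series 1. Efemp2 (fibulin-4), needed for elastin cross-linking, was detected in 75.5% of cells and was at 0.41 times the other series in series 6. Of the genes of cross-linking and its activation, 4 of 6 were higher in some series. Loxl1, the lysyl oxidase relative tied to elastin, was 2.07-fold higher in series 1 and positive with Acta2 in every series (median 0.32). Loxl2 was 2.78-fold higher in series 5 and positive with Postn in every series (median 0.32), as was the procollagen protease enhancer Pcolce (0.32).

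Matrix partners split by series. The proteoglycan genes Dcn and Bgn were 6.79-fold and 3.72-fold higher in series 1, with means of 8419 and 2274 CPM, and Dcn was lowest in series 5, at 46.3 CPM. Vcan, the large proteoglycan of cushion mesenchyme, was 2.04-fold higher in series 6 and lowest in series 2, at 475 CPM compared with 4100 CPM in series 6. Vcan was the 1 gene among the 30 listed genes in at least 20% of cells that was negative with Acta2 in every series (median -0.27), and it was negative with Fbln5 in every series too (median -0.36). Among breakdown enzymes and inhibitors 3 of 8 were higher in some series, near the 35.7% of all genes. Timp4, at 5.59-fold in series 1, reached 10 CPM in 4.42% of all cells. Of the receptors 3 of 8 were higher, again near that share, each in series 5, with the integrin subunit Itga5 at 3.39-fold.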

How the data were processed

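The authors deposited a table of raw counts, whole reads per gene, for 15124 genes in 294 cells, and a second table whose values are whole numbers with nearly equal totals per cell, treated here as a score. Per the labels' protocols, cells were captured on the Fluidigm C1 system and made into full-length cDNA without molecular identifiers. HISAT2 2.1.0, featureCounts, Seurat and the build mm10 are named in the submitters' processing notes, and the strand setting and annotation are not given in the sources used here. Counts were scaled to CPM by each cell's total with numpy 2.4.6, scipy 1.17.1 and pandas 2.3.3. All cells form 1 group, so no p-value was computed. Shares carry exact Clopper-Pearson intervals and medians order-statistic intervals, both at 95%. Coordinates and exon lengths come from GENCODE M21 on GRCm38. Genes are named as members, as Acta2 and Postn, as the 3 most similar per member, or as high and low genes of the pathway lists. Members and lists were chosen with earlier results of these data known, and the levels of 0.3, the pairs set out in full and the other list genes named were chosen after values were seen. Alternatives were other detection levels, scalings, folds, averages and correlations, thinning to 100000 reads, the second table, and leaving out each name series.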

Additional observations from a re-analysis of the deposited data

How the results depend on the processing

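The count of 22 gene by series values past 2-fold became 34 at 1.5-fold, 15 at 3-fold, and 7 with name series 1 and 2 left out, an alternative chosen after seeing the data that also has fewer values. Leaving out 1 name series gave 16 to 20. The share of all genes past 1.5-fold, past 3-fold or with 1 name series left out was not computed. Those counts are therefore not read as a trait of these genes. The 3 genes of 1 sign with Acta2 became 1 at equal total count and genes detected, and 10 with all cells as 1 stratum, where each gene has a sign by construction. For Postn the 1 gene became 0 as a Pearson correlation and 10 with 1 stratum. Leaving out 1 name series gave 1 to 2 genes with Postn, Emilin1 being added without series 2 and Eln without series 3. The cause was not tested, apart from those given by construction. Of 240 median correlations of single genes under the alternatives, 6 moved by more than the spread over series, all 6 with 1 stratum. The 4 relations that had 1 sign in every series kept it as a median, and 19 other values changed sign. Of these, 8 did so with 1 stratum, among them Eln with Postn, at 0.07, and 11 under other alternatives, in Fbln1, Fbln2 and Mfap5, all between -0.01 and 0.03. Of 120 shares of cells, 89 stayed within the interval for all cells. Thinning to 100000 reads left out 4 cells and moved 0 of the 10 shares beyond that interval. With genes of a mean of 1 CPM or more, 13.9% of values over all genes passed 2-fold, compared with 17.1% at 10 CPM. No paired analysis was possible because there is only 1 group of cells.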
